A study of Mus musculus with 12 samples.

Results

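The strain dependence of the change from prepachytene to pachytene spermatocytes was measured on 8 of the 12 arrays of the series, 2 for each of 4 groups of sorted cells. The groups were prepachytene spermatocytes of PWD/Ph males (hereafter PWD), pachytene spermatocytes of PWD, and the same populations of C57BL/6J males (hereafter B6). PWD is inbred from wild-caught mice of the subspecies *M. m. musculus*, B6 is a classical laboratory strain mostly of *M. m. domesticus* descent, and all males were untreated adults aged 8 to 10 weeks. By the study's methods, cells in leptotene, zygotene and early pachytene made up the prepachytene sort, cells from mid pachytene to diplotene made up the pachytene sort, and each sort still held a minor share of other cells. For every probeset, a group of probes that stands for 1 transcript, the pachytene minus prepachytene change of B6 was subtracted from that of PWD on the log2 scale. A positive value, called a higher change in PWD, means that a transcript rose more or fell less into pachytene in PWD than in B6, and a negative value is called a lower change in PWD. The remaining 4 arrays, of spermatids, added to the estimate of the spread and served as a readout that the contrast does not contain.

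Prepachytene spermatocytes pair their chromosomes, break their DNA and begin to assemble the synaptonemal complex. In pachytene, with synapsis complete, autosomes enter a broad wave of transcription that stores messages for spermiogenesis, whereas the unsynapsed parts of Chr X and Chr Y are silenced in the sex body. PWD and B6 are each fertile, and their F1 hybrid males can be sterile with an arrest in pachytene, and the question of the contrast is how far the parental programs already differ at that transition.

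Of 45037 probesets, 2820 (6.26% of those tested) had a higher change in PWD and 2430 (5.4%) had a lower change in PWD, by limma at an adjusted p below 0.05. Counted by gene, with the brightest probeset standing for each of 18193 genes, 1163 genes (6.39%) had a higher and 1318 genes (7.24%) a lower change. Without an adjustment, 13483 probesets had p below 0.05. The median of the contrast over all probesets was 0.06, and over genes 0.05. The counts rested on single arrays to a degree that 2 arrays a group cannot avoid. Without B6 pachytene replicate 2 the higher changes numbered 1408, and without PWD prepachytene replicate 1 they numbered 4740 and the lower changes 3890. The study's methods speak of biological replicates for RNA expression in general. The labels do not say that the 2 arrays of a group came from different animals. The p-values therefore measure the spread between sorted samples, which may be technical.

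A probeset was called above background when at least 1 of its 4 group means exceeded 5.97, the 95th percentile of 67 probesets of genes of other organs. Of the 17674 probesets above background, 1868 had a higher and 1646 a lower change in PWD. Without PWD pachytene replicate 2 the higher changes above background fell to 1197 and without B6 pachytene replicate 2 to 955, and the lower changes fell to 1055 without B6 pachytene replicate 1 and to 1067 without replicate 2. Where all 4 group means lay above background (10212 probesets), 1084 were higher and 465 lower, with a median contrast of 0.16. The 95th percentile of an array was 12.04 and 12.15 in PWD pachytene, against 11.71 and 11.54 in B6 pachytene. In prepachytene it was 12.00 and 12.02 in PWD and 11.83 and 11.83 in B6. Over probesets with a mean above background, the median contrast was 0.09. It was 0.01 with quantile normalization again and 0.001 with the arrays centred. How far the excess of higher changes among the 10212 depends on scaling was not tested. Another 952 higher and 784 lower changes were called among 27363 probesets with no group mean above background, and no gene is named from them unless a list holds it. Within each strain alone, the change into pachytene passed the threshold for 37.4% of probesets in B6 and for 61.7% in PWD. These shares are over all 45037 probesets, most of which had no group mean above background, where small shifts of dim values can pass. They were not counted above background alone, so they do not measure how far expressed transcripts changed in each strain.

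**Figure D1:**
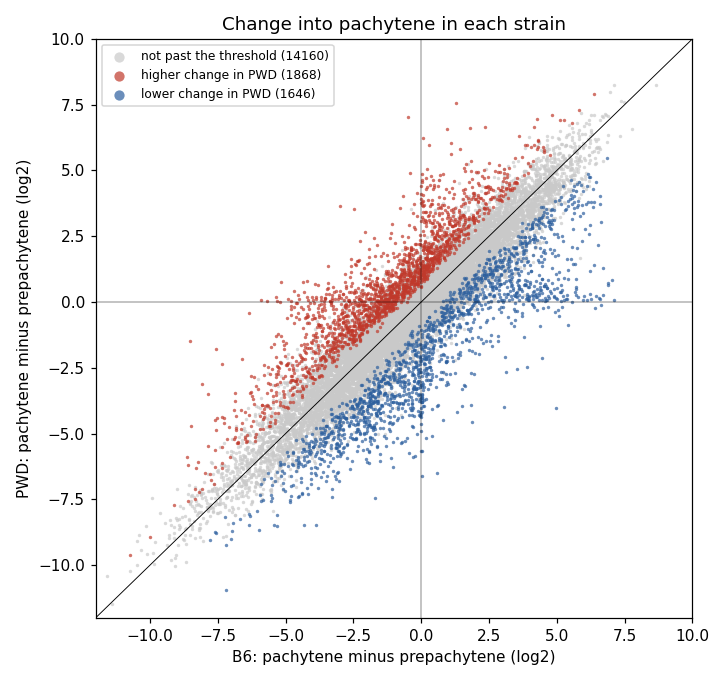
Change from prepachytene to pachytene (log2 difference of group means) in B6 on the horizontal axis and in PWD on the vertical axis for the 17674 probesets above background, with the diagonal marking equal change. The 1868 probesets with a higher change in PWD (red) lie above the diagonal and the 1646 with a lower change (blue) below it, and both sets form arms along the axes where 1 strain changed little.

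The sorted cells carried the markers of their labels in both strains. The mean log2 expression of 31 genes of prepachytene meiosis, such as *Dmc1*, *Stra8* and *Sycp1*, was 12.12 to 12.40 on the prepachytene arrays and 8.25 to 8.75 on the pachytene arrays. That of 22 pachytene and diplotene genes was 9.79 to 10.04 and 12.01 to 12.62, respectively. In PWD prepachytene the 16 Sertoli cell genes averaged 7.12 to 7.35 against 6.01 to 6.44 in B6 prepachytene, with 8 of the 16 below background in every group. The 35 spermatid genes averaged 10.48 to 10.95 in PWD prepachytene and 9.80 to 9.88 in B6 prepachytene, and PWD pachytene replicate 1 stood at 10.56 against 9.76 in replicate 2. The 15 spermatogonial genes were at 5.78 to 6.24 in PWD prepachytene and 5.47 to 5.59 in B6 prepachytene. Of 20 genes of peritubular and blood cells, 16 were below background in every group, and the 6 Leydig cell genes averaged under 4.08 on every array. The part of these shifts in the results that follow was not tested, and in sorted bulk RNA fewer cells of a type and less RNA per cell cannot be told apart.

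**Figure D2:**
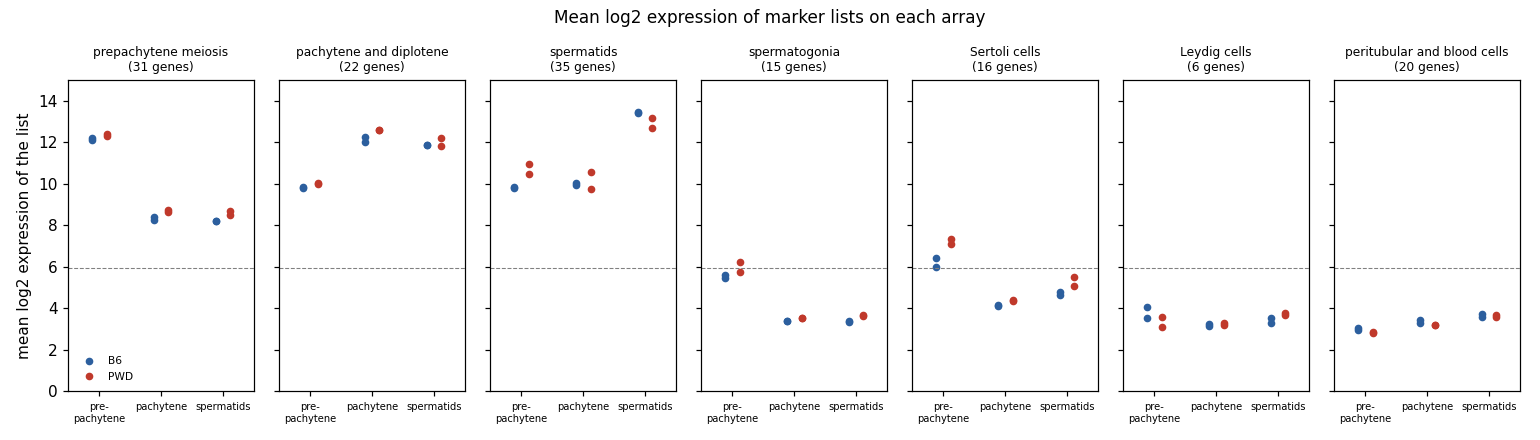
Mean log2 expression of 7 marker lists on each of the 12 arrays, by population and strain (B6 blue, PWD red), with the background level dashed. Prepachytene and pachytene genes separate the populations in both strains, and the Sertoli cell and spermatid lists lie higher in PWD prepachytene than in B6 prepachytene.

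A different change in PWD can come from a strain difference before pachytene, in pachytene, or at both times. Among the 1868 higher changes above background, the strains differed in prepachytene only for 731 (39.1%), in pachytene only for 703 (37.6%), in both for 315 and in neither for 119. Among the 1646 lower changes, they differed in prepachytene only for 929 (56.4%), in pachytene only for 435 (26.4%), in both for 245 and in neither for 37. Over all probesets the strains differed for 18.6% in prepachytene and for 12.8% in pachytene. Opposite strain differences at the 2 times were seen for 118 of the higher and 75 of the lower changes. The split of the higher changes also depended on the scaling, with 1097 in prepachytene only and 498 in pachytene only after quantile normalization again, 962 and 524 after centring, and 1093 and 1218 with values below background set to it. For the lower changes these settings gave 1047 and 502, 1111 and 597, and 1440 and 607. Without B6 pachytene replicate 2 the higher changes counted 462 in prepachytene only and 286 in pachytene only, and without PWD pachytene replicate 2 the latter counted 404. The lower changes in prepachytene only fell to 577 without B6 pachytene replicate 1 and to 599 without replicate 2.

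By direction within the strains, the most frequent pattern of a higher change was a fall in both strains that was smaller in PWD (518 probesets). A fall in B6 with no change past the threshold in PWD followed with 460, a rise in PWD with none past it in B6 with 413, and a larger rise in PWD with 341. Among the lower changes, a fall in both strains that was larger in PWD was seen for 567 probesets, a smaller rise in PWD for 358, a fall only past the threshold in PWD for 335 and a rise only past it in B6 for 294. The strains moved in opposite directions for 135 higher changes, which fell in B6 and rose in PWD, and for 91 lower changes, which rose in B6 and fell in PWD.

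Spermatids gave a readout from separate arrays. Of the 703 higher changes with a strain difference in pachytene only, 447 (63.6%) were also higher in PWD spermatids and 6 were lower, with a median spermatid difference of 1.00. Of the 435 lower changes of that kind, 291 (66.9%) were lower in PWD spermatids and 5 were higher, with a median of -1.66. Over all probesets 6.36% were higher and 5.52% lower in PWD spermatids. Where the strains differed in prepachytene only, the spermatid shares lay near those levels, with 42 higher and 45 lower among the 731 higher changes, and 40 higher and 63 lower among the 929 lower changes. Strain differences called in pachytene only were thus mostly also called in spermatids, and those called in prepachytene only mostly were not. With 2 arrays a group, a missed call does not show that the strains were alike. The shares over all probesets include dim ones and were not counted above background alone. For 237 of 595 lower changes with PWD below B6 in pachytene, PWD was below background in every population. In spermatids too, an absent transcript and a probe mismatch cannot be told apart for these.

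**Figure D3:**
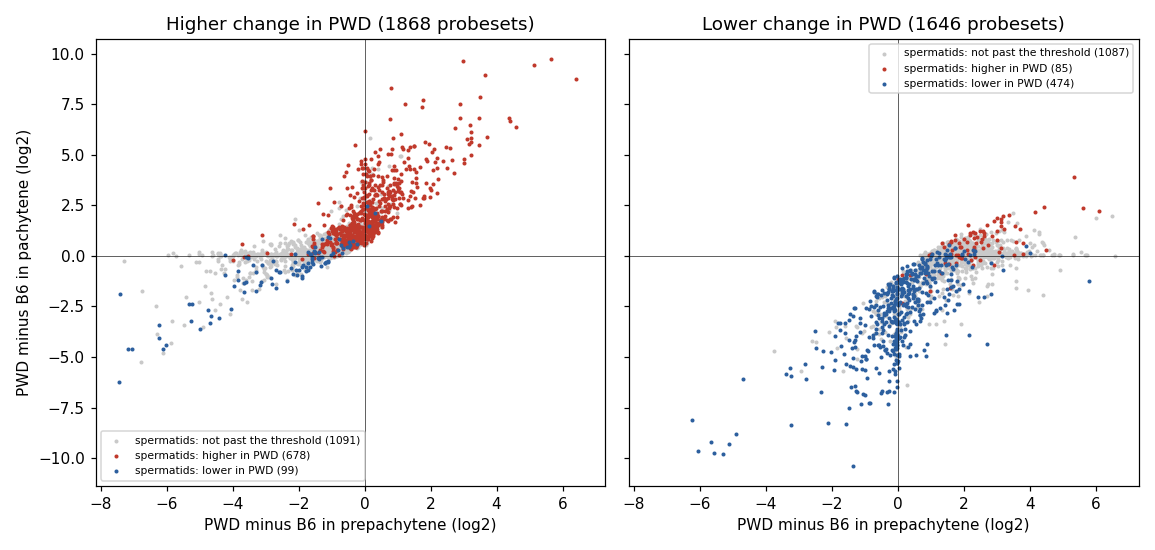
PWD minus B6 difference in prepachytene (horizontal axis, log2) against that in pachytene (vertical axis, log2) for probesets above background with a higher change (left, 1868) or a lower change (right, 1646) in PWD, coloured by the strain difference in spermatids. Points high or low on the vertical axis are mostly red (678 higher in PWD spermatids, left) or blue (474 lower, right), whereas points along the horizontal axis are mostly grey.

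Some transcripts were below background in all populations of 1 strain. Of 939 higher changes with PWD above B6 in pachytene past the threshold, B6 was below background in all 3 populations for 142 (15.1%), and of 595 lower changes with PWD below B6 there, PWD was below background throughout for 237 (39.8%). Of 928 higher changes with PWD below B6 in prepachytene past the threshold, PWD was below background throughout for 284 (30.6%), and of 1089 lower changes with PWD above B6 there, B6 was for 369 (33.9%). The probes were designed on sequence close to B6, so for a probeset without signal in any PWD population, an absent transcript and a mismatch under the probes cannot be told apart. Other probesets of the same gene give a partial view. Only probesets above background were counted, so dim ones that disagree are left out. Of 975 genes with a higher change, 379 had further probesets. Of these 622 probesets, 511 (82.2%) had the same sign, 196 were themselves called higher and 9 called lower. Of 1002 genes with a lower change, 266 had further probesets. Of these 382, 290 (75.9%) had the same sign, 142 were called lower and 17 called higher. Over all probesets above background, 10.6% were called higher and 9.31% lower.

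The genes named first had the largest contrasts above background with no overlap between the array-by-array changes of the strains. *Grtp1*, which encodes a TBC domain protein regulated by growth hormone, had the most negative value. Its log2 expression was 7.82 and 7.91 in B6 prepachytene, 12.97 and 12.69 in B6 pachytene, 6.21 and 6.76 in PWD prepachytene and 2.40 and 2.51 in PWD pachytene. It rose by 4.96 in B6 and fell by 4.03 in PWD, and the contrast was -8.99 (standard error 0.34, adjusted p = 5.03e-06). A second, brighter *Grtp1* probeset gave -6.60. *Slc19a2*, the thiamine transporter, behaved alike with 7.43 and 7.09 in B6 prepachytene, 9.43 and 8.82 in B6 pachytene, 6.92 and 7.06 in PWD prepachytene and 2.28 and 2.58 in PWD pachytene, and its contrast was -6.43 (standard error 0.37, adjusted p = 3.83e-05). In both genes PWD fell under background in pachytene while B6 rose. PWD spermatids were below it for *Slc19a2* and in this probeset of *Grtp1*, and at a mean of 6.10 in the brighter *Grtp1* probeset. In prepachytene PWD was at -1.38 relative to B6 for *Grtp1*, and for *Slc19a2* the strains did not differ past the threshold. *Runx3*, a transcription factor of the Runt family, read 3.83 and 3.82 in B6 prepachytene, 6.85 and 6.90 in B6 pachytene, 6.01 and 7.03 in PWD prepachytene and 2.77 and 2.27 in PWD pachytene, so that the B6 values rose to just above background while the PWD values fell below it, with a contrast of -7.05 (standard error 0.48, adjusted p = 8.92e-05).

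A second set rose in B6 alone. *Rnase10*, a secreted member of the ribonuclease A family needed for sperm maturation in the epididymis, read 1.85 and 1.89 in B6 prepachytene, 8.63 and 8.27 in B6 pachytene, 1.86 and 1.81 in PWD prepachytene and 1.95 and 1.97 in PWD pachytene, and its contrast was -6.46 (standard error 0.19, adjusted p = 1.74e-06). *Egflam*, an extracellular matrix protein, read 3.34 and 3.11 in B6 prepachytene, 10.47 and 10.16 in B6 pachytene, 2.79 and 3.09 in PWD prepachytene and 3.18 and 2.82 in PWD pachytene, with -7.03 (standard error 0.40, adjusted p = 4.07e-05). In both, B6 left background in pachytene and remained above it in spermatids, at 6.94 and 7.01 for *Rnase10* and 8.53 and 7.72 for *Egflam*, whereas PWD was below it on all 6 arrays. *Dapp1*, an adaptor of phosphoinositide signalling, read 3.19 and 3.19 in B6 prepachytene, 9.71 and 9.48 in B6 pachytene, 3.72 and 3.18 in PWD prepachytene and 3.21 and 3.23 in PWD pachytene, with -6.64 (standard error 0.29, adjusted p = 1.03e-05). Its B6 spermatids were back at 3.23 and 3.54 in this probeset, while a second *Dapp1* probeset, with a contrast of -6.02, stayed high in them (mean 8.98). *Ccl28*, a chemokine, and *Niban1*, a stress-induced protein, also rose in B6 alone, with contrasts of -6.43 (adjusted p = 3.26e-05) and -6.72 (adjusted p = 0.00221). For *Ccl28* a brighter probeset gave -1.24 (adjusted p = 0.107), so that its probesets disagree in size.

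*Col5a1*, a fibrillar collagen chain, and *Dcn*, the proteoglycan decorin, differed before pachytene instead. *Col5a1* read 5.34 and 4.09 in B6 prepachytene, 5.19 and 5.41 in B6 pachytene, 10.45 and 10.60 in PWD prepachytene and 4.68 and 3.41 in PWD pachytene, with a contrast of -7.07 (standard error 0.68, adjusted p = 0.000529) and -2.09 in a second probeset. *Dcn* read 6.92 and 10.13 in PWD prepachytene and between 1.86 and 2.00 on the other 6 arrays of the contrast, with -6.62 (standard error 1.17, adjusted p = 0.0101). Both are matrix genes of somatic cells, the 2 PWD prepachytene arrays of *Dcn* lay far apart, and its call was lost with values below background set to that level (adjusted p = 0.127).

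Among higher changes, *Erbb3*, a receptor of neuregulins, had the largest value. Its log2 expression was 3.54 and 3.43 in B6 prepachytene, 3.04 and 2.97 in B6 pachytene, 2.98 and 5.61 in PWD prepachytene and 11.27 and 11.40 in PWD pachytene. The contrast was 7.52 (standard error 0.97, adjusted p = 0.00235), and PWD spermatids remained high at 9.35 and 9.65 against 3.44 and 3.20 in B6. *Bdh1*, the mitochondrial enzyme of ketone body metabolism, read 2.47 and 2.49 in B6 prepachytene, 4.07 and 3.43 in B6 pachytene, 3.64 and 3.78 in PWD prepachytene and 11.19 and 11.37 in PWD pachytene, with 6.30 (standard error 0.32, adjusted p = 2.24e-05) and 3.10 in its brighter probeset. In these probesets both genes were below background in B6 at every stage and were gained in PWD from pachytene on. *Tpm4*, a tropomyosin, read 6.11 and 6.24 in B6 prepachytene, 3.16 and 3.18 in B6 pachytene, 8.65 and 9.66 in PWD prepachytene and 12.81 and 12.82 in PWD pachytene, so that it fell in B6 and rose in PWD, and its contrast was 6.66 (standard error 0.41, adjusted p = 5.6e-05). *Ntf5*, a neurotrophin, took the same course with 5.29 and 5.89 in B6 prepachytene, 3.10 and 3.11 in B6 pachytene, 6.23 and 6.51 in PWD prepachytene and 10.01 and 9.76 in PWD pachytene and a contrast of 6.01 (standard error 0.34, adjusted p = 3.46e-05).

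*Ppm1m*, a protein phosphatase, and *Lrr1*, a subunit of a ubiquitin ligase that unloads the replicative helicase, fell in B6, whereas PWD fell less or had no change past the threshold. *Ppm1m* read 7.96 and 7.05 in B6 prepachytene, 2.33 and 2.34 in B6 pachytene, 9.54 and 8.98 in PWD prepachytene and 9.89 and 10.16 in PWD pachytene, with 5.93 (standard error 0.44, adjusted p = 0.000139). *Lrr1* read 10.80 and 10.66 in B6 prepachytene, 3.62 and 2.72 in B6 pachytene, 10.24 and 10.64 in PWD prepachytene and 8.50 and 8.80 in PWD pachytene, with 5.77 (standard error 0.45, adjusted p = 0.000192), whereas 2 other *Lrr1* probesets gave 0.31 and 1.57. For both the pachytene arrays of the strains did not overlap, and in prepachytene the strain difference was 1.76 for *Ppm1m* and not past the threshold for *Lrr1*.

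The other 4 of the 10 largest higher changes rested on a prepachytene signal that was below background in PWD. *Mei4*, required for the DNA double-strand breaks that start meiotic recombination, read 9.31 and 10.02 in B6 prepachytene, 3.35 and 3.30 in B6 pachytene, 3.44 and 4.30 in PWD prepachytene and 3.47 and 3.43 in PWD pachytene, with a contrast of 5.92 (standard error 0.43, adjusted p = 0.000135). *Magea6*, an X-linked member of the melanoma antigen family, read 8.05 and 7.76 in B6 prepachytene, 1.99 and 1.99 in B6 pachytene, 1.96 and 1.93 in PWD prepachytene and 2.02 and 2.05 in PWD pachytene, with 6.01 (standard error 0.13, adjusted p = 4.5e-07). *Sub1*, a transcription coactivator, read 8.52 and 7.90 in B6 prepachytene, 2.57 and 2.47 in B6 pachytene, 2.43 and 2.54 in PWD prepachytene and 2.51 and 2.53 in PWD pachytene, with 5.72 (standard error 0.25, adjusted p = 1.07e-05), but its far brighter second probeset gave 1.10. *Rabgap1l*, a regulator of Rab GTPases, read 11.93 and 12.10 in B6 prepachytene, 3.09 and 3.90 in B6 pachytene, 4.58 and 4.84 in PWD prepachytene and 3.20 and 3.24 in PWD pachytene, with 7.03 (standard error 0.36, adjusted p = 2.07e-05), while its brightest probeset gave 0.32 (adjusted p = 0.332) and 2 others above background -0.32 and 1.83. In all 4 the pachytene values of both strains were below background, so the contrast restates the prepachytene difference, and for *Sub1* and *Rabgap1l* the brightest probeset was well above background in PWD prepachytene, at means of 14.06 and 10.57.

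**Figure D4:**
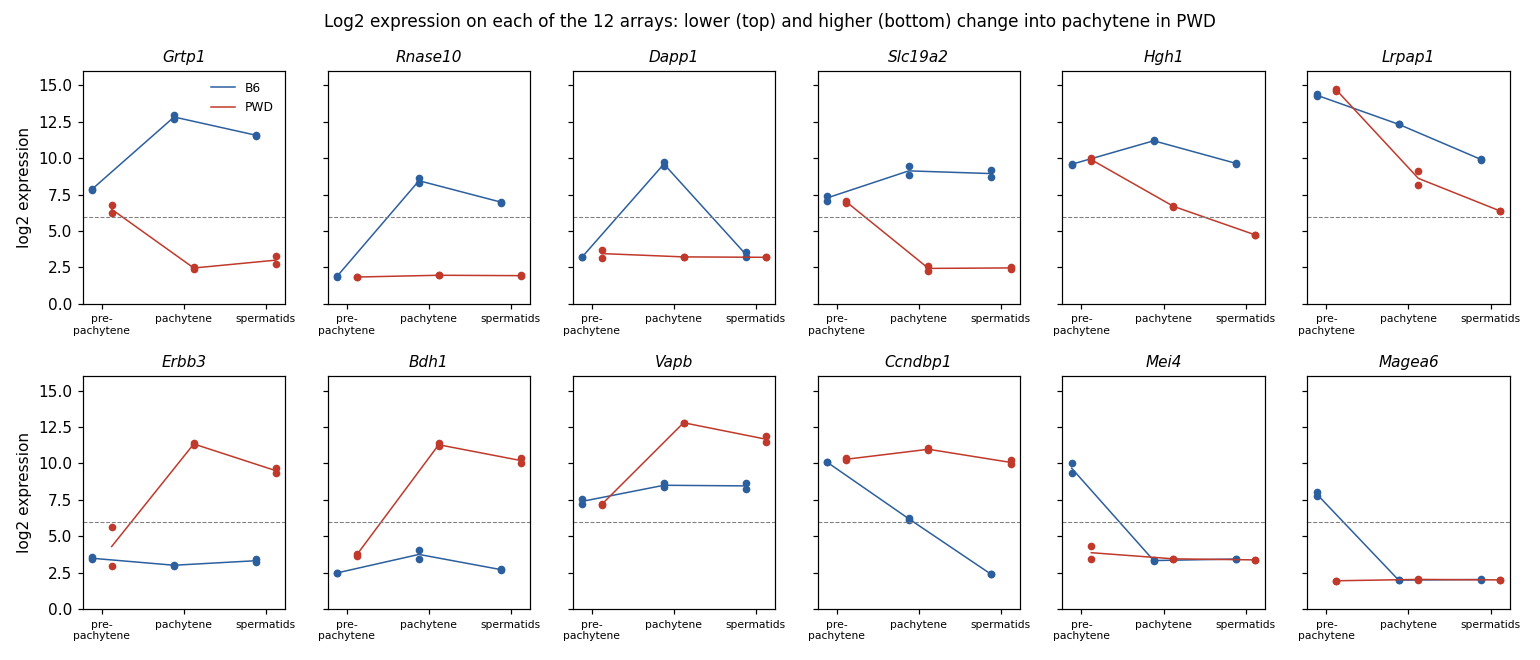
Log2 expression of 12 genes on each of the 12 arrays in prepachytene, pachytene and spermatids (B6 blue, PWD red, points are arrays, lines join group means, dashed line the background level). The top row holds genes with a lower change in PWD, of which *Grtp1*, *Slc19a2* and *Hgh1* rose in B6 and fell in PWD, and the bottom row holds higher changes, of which *Erbb3*, *Bdh1* and *Vapb* rose to between 11.19 and 12.80 in PWD pachytene.

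Where all 4 group means were above background, sizes do not depend on the floor of the array. Among these, *Tti2*, a subunit of the complex that matures ATM-related kinases, read 9.74 and 9.69 in B6 prepachytene, 7.77 and 7.51 in B6 pachytene, 9.31 and 8.98 in PWD prepachytene and 11.66 and 11.94 in PWD pachytene. It fell by 2.08 in B6 and rose by 2.65 in PWD, its contrast was 4.73 (standard error 0.24, adjusted p = 2.24e-05), and 3 further probesets of *Tti2* were also called higher, at 2.15 to 2.99. *Rpap3*, a cochaperone of Hsp90 that serves the same class of complexes, read 10.13 and 9.72 in B6 prepachytene, 7.54 and 7.64 in B6 pachytene, 10.19 and 9.79 in PWD prepachytene and 11.57 and 11.56 in PWD pachytene, with 3.91 (standard error 0.28, adjusted p = 0.000131). Each fell in B6 and rose in PWD, and their prepachytene strain differences were not past the threshold. *Ccndbp1*, a partner of D-type cyclins, read 10.10 and 10.10 in B6 prepachytene, 6.26 and 6.13 in B6 pachytene, 10.34 and 10.23 in PWD prepachytene and 10.91 and 11.03 in PWD pachytene, with 4.59 (standard error 0.20, adjusted p = 9.72e-06). It went on to 2.42 and 2.38 in B6 spermatids and 9.93 and 10.21 in PWD spermatids. *Vapb*, which tethers the endoplasmic reticulum to other membranes, read 7.56 and 7.22 in B6 prepachytene, 8.35 and 8.64 in B6 pachytene, 7.14 and 7.20 in PWD prepachytene and 12.78 and 12.80 in PWD pachytene, with 4.51 (standard error 0.28, adjusted p = 6.46e-05), the strains differing by -0.22 in prepachytene, not past the threshold, and by 4.29 in pachytene.

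*App*, the amyloid precursor, read 13.24 and 13.37 in B6 prepachytene, 6.61 and 6.82 in B6 pachytene, 11.78 and 12.72 in PWD prepachytene and 10.20 and 9.95 in PWD pachytene, with 4.41 (standard error 0.43, adjusted p = 0.000537), while a probeset of like brightness gave 1.11 (adjusted p = 0.0879). *Lars2*, the mitochondrial leucyl-tRNA synthetase, fell in B6 and had no change past the threshold in PWD, with a contrast of 4.05 (adjusted p = 0.000172). *Mlc1*, a membrane protein known from astrocytes, differed in prepachytene (11.32 and 11.04 in B6, 7.46 and 6.72 in PWD) and not past the threshold in pachytene (10.31 and 9.89 and 9.81 and 10.27), with 4.03 (adjusted p = 0.000692). *Nhlrc3* had 3.80 (adjusted p = 8.49e-05), and *Fancc*, a subunit of the Fanconi anaemia core complex that repairs crosslinks, had 3.60 (adjusted p = 0.00092) and 1.39 (adjusted p = 0.0953) in a second probeset. *H2-K1*, a class I molecule of the major histocompatibility complex, read 13.29 and 13.16 in B6 prepachytene, 9.54 and 9.50 in B6 pachytene, 8.88 and 9.58 in PWD prepachytene and 9.19 and 9.42 in PWD pachytene, with 3.78 (standard error 0.36, adjusted p = 0.000492). Its B6 prepachytene arrays stood above all others, and the pachytene arrays of the strains lay close. Other probesets of the gene gave 3.55 and 2.80, both past the threshold, and -0.96, not past it. Class I genes are polymorphic and near-identical in sequence, so which alleles and copies its probes read in PWD is uncertain.

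Among lower changes with all 4 means above background, *Hgh1*, a chaperone of elongation factor 2, read 9.54 and 9.61 in B6 prepachytene, 11.24 and 11.15 in B6 pachytene, 9.80 and 9.98 in PWD prepachytene and 6.65 and 6.74 in PWD pachytene. Its contrast was -4.81 (standard error 0.17, adjusted p = 4.24e-06), with -3.26 in a second probeset, and PWD went on to 4.72 and 4.73 in spermatids against 9.61 and 9.68 in B6. *Tmem130*, a transmembrane protein, read 6.63 and 6.02 in B6 prepachytene, 11.37 and 11.56 in B6 pachytene, 6.70 and 6.46 in PWD prepachytene and 7.10 and 6.80 in PWD pachytene, with -4.77 (standard error 0.38, adjusted p = 0.000199). It rose in B6 only, and in spermatids the strains were closer, at 10.08 and 9.82 in B6 and 9.33 and 8.78 in PWD. *Cd151*, a tetraspanin that binds integrins, read 7.57 and 6.83 in B6 prepachytene, 9.36 and 8.90 in B6 pachytene, 9.74 and 10.05 in PWD prepachytene and 7.15 and 7.15 in PWD pachytene, with -4.68 (standard error 0.38, adjusted p = 0.000221), and 3 other probesets above background gave -3.96 to -3.41. The strains thus crossed over, PWD higher in prepachytene and B6 higher in pachytene.

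*Cblb*, a ubiquitin ligase that restrains receptor signalling, read 7.97 and 7.24 in B6 prepachytene, 10.41 and 10.47 in B6 pachytene, 8.11 and 7.33 in PWD prepachytene and 6.16 and 6.29 in PWD pachytene, with -4.33 (standard error 0.42, adjusted p = 0.000537) and -3.82 in a second probeset. *Gna13*, an alpha subunit of heterotrimeric G proteins, gave -4.11 (adjusted p = 0.0005), and 3 further probesets were called lower, at -4.08 to -2.29, but its brightest probeset gave -0.57 (adjusted p = 0.209) and another 2 gave -0.41 and -0.39. *Lrpap1*, the chaperone of the LDL receptor family, read 14.25 and 14.40 in B6 prepachytene, 12.33 and 12.32 in B6 pachytene, 14.59 and 14.78 in PWD prepachytene and 8.13 and 9.10 in PWD pachytene, with -4.07 (standard error 0.38, adjusted p = 0.000454), and 3 further probesets gave -4.60 to -3.02. *Lrpap1* fell in both strains, by 2.00 in B6 and by 6.07 in PWD. *Cdk8*, the kinase of the Mediator complex, had no change past the threshold in B6 and fell by 4.09 in PWD, with -3.72 (adjusted p = 0.000403). *Lxn*, a carboxypeptidase inhibitor, and *Cmc2*, an assembly factor of cytochrome oxidase, rose in B6 and fell in PWD, with -3.87 (adjusted p = 0.000297) and -3.65 (adjusted p = 6.83e-05). Another *Cmc2* probeset gave -1.33 (adjusted p = 0.159), and a dim one went the other way, at 3.12. *Nfkbia*, the inhibitor of NF-kappa B, was called at -4.02 (adjusted p = 0.0403), and the call was lost on leaving out any of 8 of the 12 arrays, with adjusted p up to 0.126, and 2 other probesets above background gave -1.48 and -0.93.

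Promoters are shown for 4 genes with all group means above background, the 2 highest and the 2 lowest contrasts among those that the RefSeq promoter table held, because they are where a comparison of regulatory alleles would start. Each run covers 300 bases around the start of the RefSeq transcript, most of them before it, on GRCm38.p6, written 5′ to 3′ along the gene, and capitals mark matches to the NRF1 motif GCNTGCGC on either strand. They are B6-type reference sequence and carry no PWD allele. *Ccndbp1* lies at chr2:121008158-121008457 on the plus strand, *Vapb* at chr2:173737321-173737620 on the plus strand, *Tmem130* at chr5:144761529-144761828 on the minus strand and *Cd151* at chr7:141467112-141467411 on the plus strand.
Ccndbp1: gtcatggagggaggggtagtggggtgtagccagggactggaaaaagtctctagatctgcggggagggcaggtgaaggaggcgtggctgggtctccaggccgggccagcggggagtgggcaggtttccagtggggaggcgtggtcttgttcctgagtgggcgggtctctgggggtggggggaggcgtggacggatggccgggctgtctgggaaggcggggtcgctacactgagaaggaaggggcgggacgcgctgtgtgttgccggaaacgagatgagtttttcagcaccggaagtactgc
Vapb: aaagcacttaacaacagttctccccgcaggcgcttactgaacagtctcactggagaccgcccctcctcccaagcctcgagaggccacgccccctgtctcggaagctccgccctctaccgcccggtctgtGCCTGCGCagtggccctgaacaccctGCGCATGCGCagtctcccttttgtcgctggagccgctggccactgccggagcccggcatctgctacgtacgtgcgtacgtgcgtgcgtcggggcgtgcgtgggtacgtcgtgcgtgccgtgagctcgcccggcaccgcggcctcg
Tmem130: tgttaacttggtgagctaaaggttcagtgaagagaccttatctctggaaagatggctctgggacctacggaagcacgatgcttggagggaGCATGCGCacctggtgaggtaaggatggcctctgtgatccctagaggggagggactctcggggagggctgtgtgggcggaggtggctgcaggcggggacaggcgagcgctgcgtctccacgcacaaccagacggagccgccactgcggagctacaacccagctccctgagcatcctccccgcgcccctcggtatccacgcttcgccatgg
Cd151: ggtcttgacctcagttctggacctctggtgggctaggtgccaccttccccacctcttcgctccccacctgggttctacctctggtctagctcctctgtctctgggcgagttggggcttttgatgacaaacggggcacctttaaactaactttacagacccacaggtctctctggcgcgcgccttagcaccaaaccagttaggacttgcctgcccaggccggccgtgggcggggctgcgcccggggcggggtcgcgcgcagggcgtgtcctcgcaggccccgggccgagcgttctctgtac

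Matches to 4 motifs were counted on both strands, namely TGACGTCA (bound by CREB and CREM), CAGTTG (core of the MYB motif), GCNTGCGC (NRF1) and CNCCTCAG (STRA8), regulators with known parts in spermatogenesis. Of all 27025 promoters of the table, 1.85% held the first, 13.6% the second, 10.1% the third and 7.98% the fourth. Overlapping NRF1 matches on the 2 strands gave *Vapb* 3 hits, *Tmem130* had 1, and the other 2 promoters held no match to any of the 4. Among 14367 promoters of measured genes 15.9% held the NRF1 motif, among 934 of genes with a higher change 22.5% and among 1064 of genes with a lower change 16.7%. For the CREB and CREM element the same shares were 2.67%, 3.21% and 2.63%, for the MYB core 11.7%, 11.5% and 11.9%, and for the STRA8 motif 9.10%, 10.9% and 9.68%. Above background lay 9869 of the 18193 measured genes, 975 of the 1163 with a higher change and 1002 of the 1318 with a lower one. Motif shares were not counted among genes above background alone, so the NRF1 shares were not separated from expression. No difference between these shares was tested. A match is a run of letters and not a bound site.

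Gene lists were read as counts beside the shares of all genes, 6.39% higher and 7.24% lower with a median of 0.05. Among the 9869 genes with at least 1 of 4 group means above background, 9.88% were higher and 10.2% lower, with a median of -0.01. These are the nearer shares for lists of which most members were above background, as for the germ cell and housekeeping lists below. Of 18 immediate-early and stress genes, which are transcribed within minutes of a stimulus, 6 had a lower change and 0 a higher one in limma, and the median was -1.30. At an unadjusted p below 0.05 the counts were 11 and 0. *Hspa1a*, a heat-inducible chaperone, read 4.96 and 4.45 in B6 prepachytene, 4.46 and 4.39 in B6 pachytene, 8.38 and 10.85 in PWD prepachytene and 4.54 and 2.89 in PWD pachytene, with -5.62 (standard error 1.21, adjusted p = 0.0234). *Hspa1b*, its close copy, read 8.49 and 8.60 in B6 prepachytene, 3.23 and 3.23 in B6 pachytene, 10.71 and 12.23 in PWD prepachytene and 3.40 and 3.39 in PWD pachytene, with -2.76 (standard error 0.63, adjusted p = 0.0294). These 2 genes are near-identical and their probes may share signal. *Dusp1*, a phosphatase of MAP kinases, read 6.71 and 7.07 in B6 prepachytene, 5.42 and 4.92 in B6 pachytene, 9.32 and 10.26 in PWD prepachytene and 4.92 and 4.19 in PWD pachytene, with -3.51 (standard error 0.54, adjusted p = 0.00519). In these genes PWD prepachytene stood above B6 prepachytene, and pachytene values overlapped or lay close. *Ier3*, *Btg2* and *Ier2* were likewise lower at -3.05, -2.93 and -1.89. The count was 3 without PWD pachytene replicate 2 or without B6 pachytene replicate 1 and 12 without PWD prepachytene replicate 1. The call of *Hspa1a* was lost on leaving out any of 4 arrays (adjusted p up to 0.0749) and that of *Btg2* on leaving out either of the 2 pachytene arrays just named (up to 0.0648), and that of *Ier3* with values below background set to that level (adjusted p = 0.212). Beside these, Sertoli cell and spermatid genes were higher on the same PWD prepachytene arrays, as given above, and their part was not tested.

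Of 18 genes of the piRNA pathway, which silences transposons in germ cells, 4 had a higher change and 0 a lower one in limma (9 and 0 at an unadjusted p below 0.05), and the median was 0.72. *Henmt1*, which methylates the ends of piRNAs, had 2.31 (adjusted p = 0.0365), *Tdrd5* had 1.73 (adjusted p = 0.0463), *Tdrkh*, which helps trim piRNAs, had 1.30 (adjusted p = 0.0464) and the helicase *Mov10l1* had 1.20 (adjusted p = 0.0269). *Mov10l1* read 13.27 and 13.47 in B6 prepachytene, 9.45 and 9.20 in B6 pachytene, 13.20 and 13.00 in PWD prepachytene and 10.00 and 10.53 in PWD pachytene, a smaller fall in PWD, and *Tdrd5* read 7.68 and 7.47 in B6 prepachytene, 9.91 and 9.68 in B6 pachytene, 8.42 and 7.48 in PWD prepachytene and 11.64 and 12.16 in PWD pachytene, a larger rise in PWD. These calls are fragile, and *Piwil1* and *Mybl1*, with values given below, were not past the threshold. The count was 0 without B6 pachytene replicate 2 or B6 prepachytene replicate 2, 1 or 2 without any of 7 further arrays, and 9 without PWD prepachytene replicate 1.

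Of 31 genes of prepachytene meiosis, 2 were higher and 0 lower in limma (6 and 4 at an unadjusted p below 0.05) with a median of 0.21. The 2 were *Meiob*, a partner of the strand-exchange machinery, and *Hormad1*, an axis protein that marks unsynapsed chromosomes. *Hormad1* read 13.44 and 13.60 in B6 prepachytene, 10.13 and 9.78 in B6 pachytene, 13.86 and 13.55 in PWD prepachytene and 11.46 and 11.65 in PWD pachytene, with 1.41 (standard error 0.22, adjusted p = 0.00595), and *Meiob* read 13.17 and 13.05 in B6 prepachytene, 6.89 and 6.34 in B6 pachytene, 12.96 and 12.82 in PWD prepachytene and 8.59 and 8.80 in PWD pachytene, with 2.30 (standard error 0.44, adjusted p = 0.0147). Both fell in each strain and were retained more in PWD pachytene, with no overlap of the pachytene arrays. Without B6 pachytene replicate 2 the list had 1 call and *Meiob* an adjusted p of 0.0531, and without PWD prepachytene replicate 2 it had 4. *Rec8*, a meiotic cohesin, had -1.94 (adjusted p = 0.16), *Tex11*, an X-linked crossover gene, 1.92 (adjusted p = 0.0659) and *Mei1* -1.74 (adjusted p = 0.0645), none past the threshold. With the lower changes, 1 to 3 were called on leaving out PWD pachytene replicate 1 or either PWD prepachytene array.

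Of 22 pachytene and diplotene genes, 3 were higher and 0 lower in limma (6 and 1 at an unadjusted p below 0.05), with a median of 0.12. *Pdha2*, the autosomal retrogene of pyruvate dehydrogenase, read 12.04 and 11.87 in B6 prepachytene, 13.54 and 13.20 in B6 pachytene, 10.99 and 10.65 in PWD prepachytene and 14.16 and 14.09 in PWD pachytene, with 1.89 (standard error 0.26, adjusted p = 0.00312). *Aurkc*, a kinase of the meiotic divisions, read 8.37 and 7.83 in B6 prepachytene, 12.36 and 12.13 in B6 pachytene, 4.05 and 4.19 in PWD prepachytene and 10.84 and 10.71 in PWD pachytene, with 2.50 (standard error 0.31, adjusted p = 0.00209). *Aurkc* was lower in PWD at both stages and PWD prepachytene was below background, and with values below background set to that level its call was lost (adjusted p = 0.156). *Piwil1*, a piRNA-binding protein, at 1.75 (adjusted p = 0.0771) and *Mybl1*, a regulator of pachytene transcription, at 1.31 (adjusted p = 0.0875) were not past the threshold. *Adam2*, a sperm surface protein, had 0.91 (adjusted p = 0.0473). The list had 6 higher and 2 lower calls without PWD prepachytene replicate 1 and 1 lower call without PWD pachytene replicate 2.

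Of 35 spermatid genes, 3 were lower and 0 higher in limma (9 and 0 at an unadjusted p below 0.05), with a median of -0.65. *Prm2*, a protamine, read 11.55 and 11.73 in B6 prepachytene, 8.11 and 7.88 in B6 pachytene, 13.29 and 13.44 in PWD prepachytene and 8.28 and 8.54 in PWD pachytene, with -1.31 (standard error 0.24, adjusted p = 0.0107), and *Tnp2*, a transition protein, had -1.35 (adjusted p = 0.042). *Tex33* had -1.67 (adjusted p = 0.0445), with the call lost on leaving out any of 9 arrays (adjusted p up to 0.112). All 3 were higher in PWD than in B6 prepachytene and not past the threshold in pachytene. *Spaca3*, a lysozyme-like protein of the acrosome, had the lowest value of the list at -2.23 (adjusted p = 0.0686), not past the threshold, like *Catsper3* at -1.68 (adjusted p = 0.198) and *Spem1* at -1.47 (adjusted p = 0.0517). The count of lower calls was 8 without PWD pachytene replicate 1, the array with more spermatid signal, 6 without PWD prepachytene replicate 1, and 1 without any of 8 others.

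Among 15 spermatogonial genes, 3 were lower and 1 higher. *Sohlh1*, a transcription factor of differentiating spermatogonia, read 5.13 and 4.87 in B6 prepachytene, 2.68 and 2.54 in B6 pachytene, 7.32 and 8.17 in PWD prepachytene and 2.56 and 2.58 in PWD pachytene, with -2.78 (standard error 0.35, adjusted p = 0.00221), and its partner *Sohlh2* read 10.02 and 10.00 in B6 prepachytene, 1.50 and 1.84 in B6 pachytene, 8.81 and 9.12 in PWD prepachytene and 1.84 and 1.89 in PWD pachytene, with 1.23 (standard error 0.26, adjusted p = 0.0196). The pair thus differed in opposite directions before pachytene, and the list had 0 higher calls without B6 pachytene replicate 1 and 2 without PWD pachytene replicate 2 or PWD prepachytene replicate 2. *Sall4* and *Etv5* had -1.59 (adjusted p = 0.0177) and -1.09 (adjusted p = 0.00445), and *Etv5* was below background in all 4 groups. The call of *Sall4* was lost without PWD pachytene replicate 2 or either B6 pachytene array (adjusted p up to 0.0602) and in 2 other alternatives (up to 0.0913). *Lin28a* (-1.62) and *Uchl1* (-1.51) had values of like size that were not past the threshold. Among 16 Sertoli cell genes, *Cldn11*, a tight junction protein, had -2.07 (adjusted p = 0.00502), *Inhbb* had -2.69 (adjusted p = 7.07e-05) with all group means below background, and *Ctsl* had 1.13 (adjusted p = 0.047), with a list median of -0.94. The Sertoli cell list had 4 lower calls without B6 prepachytene replicate 1 and 0 higher ones without any of 6 arrays. *Wt1* at -1.72 (adjusted p = 0.203) and *Rhox5* at -1.66 (adjusted p = 0.0523) were not past the threshold. *Cldn11* read 7.67 and 7.94 in PWD prepachytene and 5.92 and 5.79 in B6 prepachytene. The Leydig cell list had 1 call, of *Star* below background, and the peritubular and blood cell list 2, of *Acta2* (-2.15 (adjusted p = 0.0379), lost on leaving out any of 10 arrays) and of *C1qc* below background. The call of *Star* was lost on leaving out any of 3 arrays (adjusted p up to 0.0552). Members of these 2 lists with values not past the threshold were *Cyp17a1* (1.53), *Ptgds* (0.26), *Cyp11a1* (0.25), *Adgre1* (-0.74), *Alas2* (-0.39) and *Laptm5*, a lysosomal protein of blood cells, at 2.83 (adjusted p = 0.109).

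**Figure D5:**
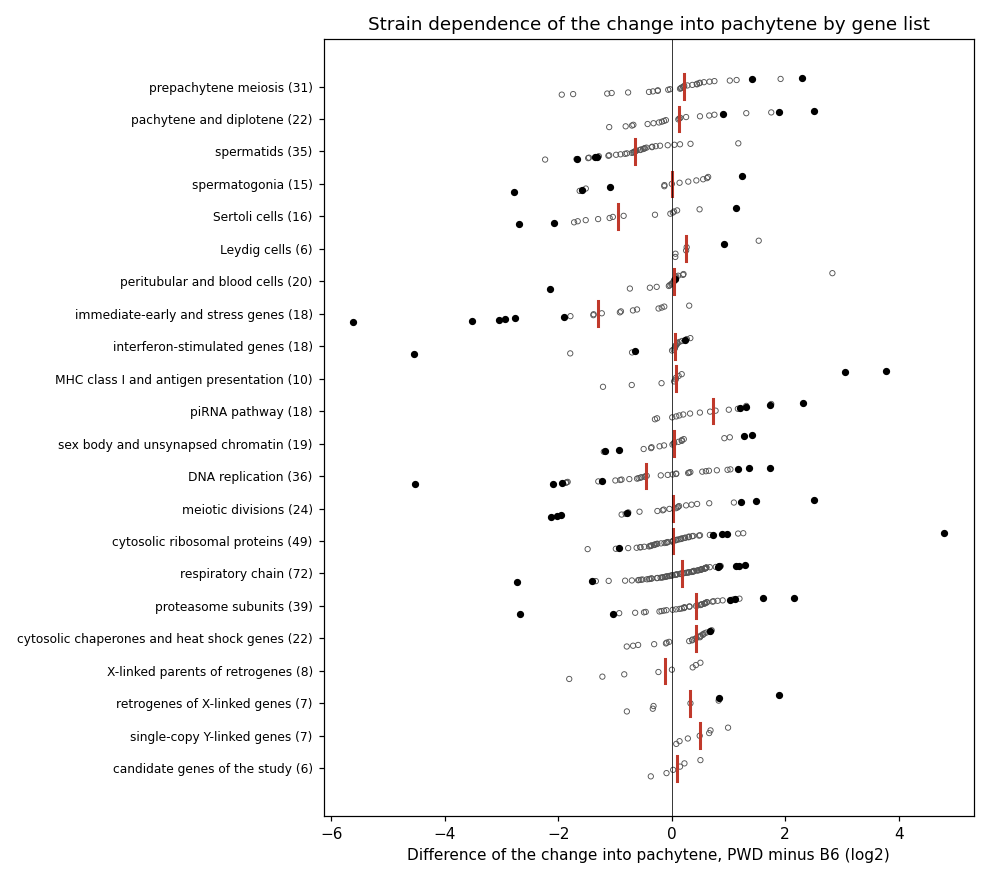
Difference of the change into pachytene, PWD minus B6 (log2), for each measured gene of 22 lists, with filled points past the threshold, open points not past it and a red bar at the median of a list. Immediate-early and stress genes, Sertoli cell genes and spermatid genes have medians of -1.30, -0.94 and -0.65, and piRNA pathway genes one of 0.72.

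Of 36 DNA replication genes, 3 were higher and 4 lower, with a median of -0.45. *Cdc6*, which loads the replicative helicase, read 9.46 and 9.71 in B6 prepachytene, 10.22 and 10.17 in B6 pachytene, 8.29 and 9.88 in PWD prepachytene and 5.50 and 4.86 in PWD pachytene, with -4.52 (standard error 0.65, adjusted p = 0.00413), and PWD fell where B6 did not change past the threshold. *Pold1*, the catalytic subunit of polymerase delta, read 11.91 and 11.73 in B6 prepachytene, 8.36 and 8.13 in B6 pachytene, 12.46 and 12.87 in PWD prepachytene and 6.75 and 7.24 in PWD pachytene, with -2.10 (standard error 0.32, adjusted p = 0.00483), a larger fall in PWD. *Rfc3* had -1.93 (adjusted p = 0.0359), lost without any of 10 arrays, and *Cdt1* had -1.22 (adjusted p = 0.0258). Of subunits of the active helicase, *Gins4* was higher at 1.74 (adjusted p = 0.00769), *Cdc45* at 1.36 (adjusted p = 0.0414) and *Gins1* at 1.17 (adjusted p = 0.0236), while *Gins2* had -1.86 (adjusted p = 0.113) and -1.11 in a second probeset, neither past the threshold. The lower calls numbered 8 without PWD prepachytene replicate 1 and 2 without either B6 pachytene array or B6 prepachytene replicate 2, and the higher calls 1 without PWD pachytene replicate 2, either B6 pachytene array or B6 prepachytene replicate 1.

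Of 24 genes of the meiotic divisions, 3 were higher (*Aurkc*, *Cdk1* and *Aurka*) and 4 lower (*Cdc25b*, *Aurkb*, *Ccna2* and *Birc5*). *Cdk1*, the kinase that drives entry into division, read 11.77 and 11.89 in B6 prepachytene, 10.75 and 10.72 in B6 pachytene, 10.97 and 10.13 in PWD prepachytene and 11.05 and 10.83 in PWD pachytene, with 1.48 (standard error 0.37, adjusted p = 0.0413). *Aurkb* read 6.17 and 6.38 in B6 prepachytene, 9.84 and 9.71 in B6 pachytene, 7.97 and 8.83 in PWD prepachytene and 10.14 and 9.61 in PWD pachytene, with -2.03 (standard error 0.42, adjusted p = 0.0203), and a second probeset gave -2.85. For *Aurkb* the difference lay in prepachytene, where PWD was higher, and its call was lost on leaving out any of 4 arrays (adjusted p up to 0.0645). The calls of *Ccna2* (-1.95) and *Cdc25b* (-2.12) were lost on leaving out any of 10 arrays, a second *Ccna2* probeset gave 0.22 (adjusted p = 0.763), and the list had 0 lower calls without either B6 pachytene array and 1 higher call without any of 7 arrays.

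Housekeeping complexes formed 4 lists, with medians from 0.02 to 0.43. Of 49 cytosolic ribosomal protein genes, 4 were higher and 1 lower, with a median of 0.02. *Rpl14* read 7.47 and 7.60 in B6 prepachytene, 2.66 and 3.35 in B6 pachytene, 2.48 and 2.37 in PWD prepachytene and 2.69 and 2.69 in PWD pachytene, with 4.80 (standard error 0.28, adjusted p = 4.08e-05). Of these groups only B6 prepachytene was above background, and with values below background set to that level the contrast was 1.56. The other 4 calls lay between -0.93 and 0.98. *Rpl27a* (-1.48), *Rps9* (1.26) and *Rpl22* (1.17) were not past the threshold, and 2 higher calls were left without B6 pachytene replicate 2. Of 72 respiratory chain genes, 5 were higher and 2 lower, with a median of 0.18. *Ndufa1*, an X-linked subunit of complex I, read 15.44 and 15.85 in B6 prepachytene, 10.73 and 10.87 in B6 pachytene, 15.13 and 15.19 in PWD prepachytene and 7.50 and 7.66 in PWD pachytene, with -2.73 (standard error 0.29, adjusted p = 0.000877), so that it fell further in PWD. *Ndufa6*, another subunit of complex I, had -1.41 (adjusted p = 0.0319), lost on leaving out any of 6 arrays (adjusted p up to 0.0984), and *Uqcrc2*, of complex III, had 1.28 (adjusted p = 0.00646) and 1.10 in a second probeset. *Cox7c* at -1.34 was not past the threshold. Higher respiratory chain calls numbered 1 without B6 pachytene replicate 2, 3 without PWD pachytene replicate 2 or B6 prepachytene replicate 1, and 9 without PWD prepachytene replicate 1. Of 39 proteasome genes, 4 were higher and 2 lower, with a median of 0.43. *Psma8*, the subunit particular to germ cell proteasomes, read 13.82 and 13.51 in B6 prepachytene, 13.88 and 13.45 in B6 pachytene, 12.94 and 11.81 in PWD prepachytene and 14.39 and 14.66 in PWD pachytene, with 2.15 (standard error 0.47, adjusted p = 0.0246), and *Psma7*, the subunit whose place it takes, read 7.48 and 7.50 in B6 prepachytene, 5.41 and 4.53 in B6 pachytene, 9.60 and 9.53 in PWD prepachytene and 4.32 and 4.41 in PWD pachytene, with -2.68 (standard error 0.54, adjusted p = 0.0177). *Psma8* rose in PWD and had no change past the threshold in B6, and *Psma7* fell in both strains, further in PWD. The pachytene values of *Psma7* were below background in both strains, so its contrast mostly restates the prepachytene difference. The call of *Psma8* was lost on leaving out any of 4 arrays (adjusted p up to 0.0856) and that of *Psma7* without B6 prepachytene replicate 2 (0.0524). *Psmb7*, a catalytic subunit, rose in PWD by 1.86 with no change past the threshold in B6, and its contrast was 1.61 (adjusted p = 0.0127). *Psmd10* at 1.19 was not past the threshold. Higher proteasome calls numbered 2 without B6 pachytene replicate 2 or either B6 prepachytene array and 7 without PWD spermatid replicate 2. Of 22 cytosolic chaperone genes, 1 was higher, with a median of 0.43, and it was *Dnaja1* (0.67 (adjusted p = 0.0352)), a cochaperone of Hsp70. Its call was lost on leaving out any of 8 arrays (adjusted p up to 0.104) and in 3 other alternatives (up to 0.0665), and the list had 3 higher calls without either PWD spermatid array and 1 lower call without PWD pachytene replicate 2. Members with larger contrasts, *Hsph1* (-0.79), *Cct8* (0.70) and *Hspa1l* (-0.68), were not past the threshold.

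Immune genes formed 2 lists. Of 18 interferon-stimulated genes 1 was higher and 2 lower, and 3 of the 18 were above background. *Ddx58*, which encodes the RNA sensor RIG-I, read 2.19 and 2.21 in B6 prepachytene, 6.85 and 6.76 in B6 pachytene, 2.19 and 2.10 in PWD prepachytene and 2.20 and 2.23 in PWD pachytene, with -4.54 (standard error 0.09, adjusted p = 3.18e-07), and it was at 2.20 to 2.29 on the spermatid arrays. *Mx2*, below background, was also called lower at -0.64, and *Irf9* (-1.79) and *Bst2* (-0.70) were not past the threshold. Without PWD prepachytene replicate 1 the list had 4 lower calls. Of 10 genes of class I antigen presentation, 2 were higher and 0 lower in limma (2 and 1 at an unadjusted p below 0.05), *H2-K1* as above and *Tap1*, a peptide transporter. *Tap1* read 2.53 and 2.23 in B6 prepachytene, 2.68 and 2.55 in B6 pachytene, 3.10 and 2.57 in PWD prepachytene and 5.84 and 6.40 in PWD pachytene, with 3.05 (standard error 0.33, adjusted p = 0.000919), and its PWD pachytene values straddled the background level, so that its call was lost when values below it were set to it (adjusted p = 0.368). *H2-D1*, another class I molecule, at -1.21 (adjusted p = 0.0577) and *B2m*, their light chain, at -0.70 (adjusted p = 0.31) were not past the threshold in their brightest probesets. Another *H2-D1* probeset above background was called lower in limma, at -3.75 (adjusted p = 0.00126), while others above background gave -0.05 and 0.68, not past the threshold. This list had 2 lower calls without PWD prepachytene replicate 1.

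Of 618 X-linked genes, 46 (7.44%) had a higher and 27 (4.37%) a lower change, against 6.37% and 7.34% of 17516 autosomal genes. Over the autosomes the higher share ranged from 4.68% on Chr 16 to 8.90% on Chr 3, and the lower share from 4.42% on Chr 6 to 8.74% on Chr 2. Of the X-linked calls above background, 25 of 26 higher and 16 of 18 lower ones were below background in pachytene of both strains, and 24 and 16 of them had a strain difference in prepachytene. Of autosomal calls above background, 82 of 948 higher and 331 of 981 lower ones were below it in pachytene of both strains. For these X-linked calls the contrast mostly restated a strain difference in prepachytene. X-linked genes silenced in pachytene pass the background filter only through prepachytene, so their shares are partly set by that filter. The remaining X-linked calls had no group mean above background. The 19 genes of the sex body and of unsynapsed chromatin had 2 higher and 2 lower calls with a median of 0.03, and 0 lower calls without B6 pachytene replicate 1, where *Ehmt1* had an adjusted p of 0.0603. *Ehmt1* and *Ehmt2*, which together methylate histone H3 lysine 9, had -1.17 (adjusted p = 0.0157) and -0.93 (adjusted p = 0.0342), and *Ube2b*, an enzyme of histone ubiquitination, had 1.27 (adjusted p = 0.0186), with its call lost without PWD pachytene replicate 2, B6 pachytene replicate 2 or B6 prepachytene replicate 1 (adjusted p up to 0.0661), each of which left the list with 1 higher call. Other *Ube2b* probesets above background gave 0.15 and -1.94 (adjusted p = 0.0866), and *Brca1*, which marks unsynapsed axes, had -1.20 (adjusted p = 0.0884), none past the threshold. Lower calls of the list numbered 1 without any of 6 further arrays. Of 7 retrogenes of X-linked genes, *Pdha2* and *Cstf2t* (0.84 (adjusted p = 0.0443), lost on leaving out any of 10 arrays) were higher, and of their 8 X-linked parents 0 were called by limma in their brightest probesets and 1 had an unadjusted p below 0.05. That gene was *Pgk1*, a glycolytic kinase, at -1.81 (adjusted p = 0.13), and 2 further *Pgk1* probesets of like brightness were called lower, at -3.80 (adjusted p = 0.00601) and -2.32 (adjusted p = 0.0459). The other parents reached at most -1.22 for *Zfx*, -0.84 for *Cstf2* and 0.51 for *Tktl1*, and of the retrogenes *Rbmxl2* had 0.83 (adjusted p = 0.216) and *Cetn1* -0.79 (adjusted p = 0.0642). The 7 single-copy Y-linked genes gave 0 calls, also at an unadjusted p below 0.05, with a median of 0.49, and 4 of them were above background. The values of *Kdm5d*, *Usp9y*, *Eif2s3y* and *Uty* were 0.99, 0.68, 0.66 and 0.49.

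The study's candidate interval for hybrid sterility lies on Chr X, and 6 of its protein-coding genes were read here. *4930447F04Rik*, another candidate of the study, was not among them. In limma 0 of the 6 passed the threshold, also at an unadjusted p below 0.05. *Fmr1*, an RNA-binding protein, read 13.03 and 13.03 in B6 prepachytene, 3.27 and 2.61 in B6 pachytene, 12.58 and 12.98 in PWD prepachytene and 3.43 and 2.96 in PWD pachytene, with 0.51 (standard error 0.64, adjusted p = 0.624), and in this brightest probeset pachytene lay below background in each strain. A second *Fmr1* probeset read means of 6.62 and 6.33 in B6 prepachytene and pachytene and 6.22 and 5.40 in PWD, with a contrast of -0.52 (adjusted p = 0.55). The 95% interval of the contrast in the brightest *Fmr1* probeset reached from -0.99 to 2.00. *Fmr1nb*, its neighbour, had -0.09 (adjusted p = 0.963) with an interval of -2.46 to 2.27, and *Ctag2*, a cancer/testis antigen, had -0.37 (adjusted p = 0.731) with one of -1.87 to 1.13. *4933436I01Rik* had 0.22 (adjusted p = 0.89), *Aff2* 0.15 (adjusted p = 0.309) and *Slitrk2* 0.03 (adjusted p = 0.831), each with all 4 group means below background. Contrasts of more than 1 in size lie inside each of the 3 intervals given, those of *Fmr1*, *Fmr1nb* and *Ctag2*. For these genes the lack of a call does not show that the strains changed alike. Of 16 genes of autosomal intervals that the study considered, all above background, 3 were higher and 0 lower in limma (4 and 3 at an unadjusted p below 0.05), with a median of -0.12. They were *Mei4* and *Hormad1*, given above, and *Smc4*, a condensin subunit, which read 15.25 and 15.33 in B6 prepachytene, 15.06 and 14.78 in B6 pachytene, 14.89 and 15.07 in PWD prepachytene and 15.36 and 15.53 in PWD pachytene, with 0.83 (standard error 0.18, adjusted p = 0.0242). In prepachytene the strain difference passed the threshold for *Mei4* and not for *Smc4* or *Hormad1*. *Rec114* at -1.11 (adjusted p = 0.089) and *Mnd1* at -1.06 (adjusted p = 0.0583) were not past the threshold. Without PWD prepachytene replicate 1 the list had 5 higher and 3 lower calls.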

How the data were processed

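The series holds 12 arrays of flow-sorted testicular cells, of which 8 enter the contrast. The deposited log2 expression values of standard Affymetrix probesets were made by the authors; the submitters' notes name GCRMA as the method, with a version not given in the sources used here. By contrast, the study's methods name RMA and a custom chip description file, and labels and methods also differ in the RNA kit. The age of the males in the methods, given in days, lies within the range of the labels. GCRMA corrects background by probe sequence and equalizes quantiles, so a group-wide shift in RNA content can move many values, and PWD variants under a probe can lower PWD values.

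After removal of 64 control probesets, 45037 were fitted by limma (version 3.58.1, under R 4.3.3). The model held 6 group means, variances were moderated toward an intensity trend, and the Benjamini-Hochberg procedure was applied over all probesets with a threshold of 0.05. Every adjusted p given is from this fit or a stated alternative of it. In the platform annotation 34945 probesets named 1 gene, 932 several and 9160 none. A gene was represented by its brightest probeset in lists. Genes named were the 10 highest and 10 lowest contrasts above background without overlap between the strains' changes. The same was done with all 4 group means above background. Also named were the 4 measured members of each list with the largest contrasts of either sign, and 6 of the study's Chr X candidate genes. Further called members of short lists were named after their values were seen. Members, lists and tests were chosen with earlier results of these data known. Descriptive tables and promoter searches were made in Python 3.11.15 with numpy 2.4.6 and pandas 2.3.3, and plots with matplotlib 3.10.9. The fit was tested on simulated data. Alternatives were a fit of the 8 arrays, a replicate block, quantile normalization again, centring, filters, a floor, other variance priors, stricter thresholds, the median over a gene's probesets and leaving out each array. The number of arrays limits the precision.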

Additional observations from a re-analysis of the deposited data

Results flagged for a closer look

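Changes into pachytene in opposite directions in the strains stand out, with each strain's change and the contrast between them past the threshold of limma. Above background, 135 probesets fell in B6 and rose in PWD and 91 rose in B6 and fell in PWD. Among the genes named, those that fell in B6 and rose in PWD were *Tpm4* (contrast 6.66), *Ntf5* (6.01), *Tti2* (4.73), *Ccndbp1* (4.59), *Mlc1* (4.03), *Rpap3* (3.91), *Nhlrc3* (3.80) and *Fancc* (3.60). Those that rose in B6 and fell in PWD were *Grtp1* (-8.99), *Runx3* (-7.05), *Slc19a2* (-6.43), *Hgh1* (-4.81), *Cd151* (-4.68), *Cblb* (-4.33), *Gna13* (-4.11), *Lxn* (-3.87) and *Cmc2* (-3.65). Groups of 2 arrays were not tested for outlying arrays.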

How the results depend on the processing

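Over all probesets the 2820 higher changes became 1112 and the 2430 lower changes 1198 at an adjusted p below 0.01, the higher changes 1707 in a fit of the 8 arrays, and with only probesets of a mean above background tested the counts were 1770 and 1198. Above background the 1868 higher changes became 753 at an adjusted p below 0.01, 1195 in the fit of the 8 arrays and 2877 with values below background set to it, and the 1646 lower changes 791 at the stricter threshold. On leaving out single arrays the counts ran from 1408 to 4740 and from 1824 to 3890 over all probesets, and from 955 to 2187 and from 1055 to 2279 above background. The causes were not tested. Quantile normalization again gave 2908 and 2815 over all probesets, and centring 2479 and 3047, with the median contrast moved from 0.06 to 0.02 and -0.03.

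Differences between replicates 1 and 2 correlated weakly between groups, at -0.166 to 0.0639 over 15 pairs of groups, with 0 over 0.1. The value of -0.166 was between PWD pachytene and PWD prepachytene. Weak correlations cannot show that the samples were unpaired, and the labels do not say whether replicate numbers pair them. With the replicate number as a block the counts were 2278 and 2147 over all probesets and 1566 and 1425 above background. Of 77 named genes past the threshold, 51 stayed past it with the same sign in every alternative fit that kept their probeset. Over 1585 pairs of gene and such alternative, 170 lost the call and 0 changed sign. Many of these genes were named for large contrasts without overlap between arrays of these same data, so such stability was partly built in. A value near or below the background level carries little signal, and there sizes depend on the array's floor.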
